A study of Homo sapiens with 12 samples.

Results

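The genes described here code for proteins of the core spliceosome: the proteins of the small nuclear ribonucleoprotein particles (snRNPs), the SF3A and SF3B subunits and U2AF2, the U6-binding LSM ring, the PRP19 complex with related proteins, and the spliceosomal helicases. They were chosen as a list of 47 gene symbols, and 46 were found among the 16599 genes of the count table by symbol. PRPF6 was not analysed here. The list is one of symbols alone and applies no cut-off on measured values. The genes and their classes were, however, chosen with earlier results of these data known. All 46 passed the filter on low counts, with a lowest count of 269 in any library (LSM6).

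The data were RNA-seq read counts per gene from polyadenylated RNA of A549 and H1650 cells, both established human lung adenocarcinoma lines. Each line was grown untreated or made to over-express SRSF2, a serine/arginine-rich splicing factor that binds exonic splicing enhancers, and each of the 4 groups held 3 libraries. The untreated samples carry the letters NC in their titles, which the labels do not explain, and the vector, the promoter and the time of over-expression are not given in the sources used here. Expression of the SRSF2 gene was not analysed here, and over-expression was not checked. The labels do not say whether the 3 libraries of a group came from separate cultures, so p-values measure only the spread between these libraries, which may be technical. Totals ran from 23876899 to 32079027 counts per library. Of 6 epithelial markers all 6 were in the table, and their summed level lay between 9497 and 10458 CPM (counts per 1000000 counts of the library) in A549 and between 9325 and 10382 CPM in H1650. EPCAM was low in A549, at 3.39 to 6.33 CPM, and stood at 295 to 354 CPM in H1650. CDH1 (25.6 to 43.0 and 1120 to 1328 CPM) and KRT19 (99.9 to 128 and 561 to 1309 CPM) were also lower in A549. KRT7, KRT8 and KRT18 were higher there and made up most of the sum in both lines. Of 6 fibroblast and 6 leukocyte markers 2 each were in the table. Their sums were 8.63 to 15.0 and 11.3 to 13.9 CPM in A549, and 19.1 to 22.7 and 0.461 to 1.31 CPM in H1650. The SRSF2 libraries of H1650 varied more than the rest, with a biological coefficient of variation of 0.0559 over all genes against 0.0298 to 0.0342 in the other 3 groups.

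Introns are removed by the spliceosome, which assembles anew on each intron from the U1, U2, U4, U5 and U6 snRNPs. U1 pairs with the 5′ splice site, U2 with the branch site, and the U4/U6.U5 tri-snRNP then joins, after which U1 and U4 leave and the catalytic centre forms around U6, U2 and PRPF8. Each snRNA except U6 carries a ring of Sm proteins, U6 carries an LSM ring, and RNA helicases drive the rearrangements between stages. SR proteins such as SRSF2 help to recruit U1 and the U2-associated factors to splice sites. The snRNAs themselves lack poly(A) tails, and only the mRNAs of the proteins are described here.

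Levels in single libraries are given as CPM scaled by the trimmed mean of M values (TMM), and each change is a log2 fold change of SRSF2 over untreated libraries. Changes were tested with edgeR's quasi-likelihood test over 15991 genes and called at a Benjamini-Hochberg adjusted p under 0.05. In A549, 6 of the 46 genes rose and 11 fell, or 37.0%, where 32.3% of all genes tested were called. The median log2 change of the 46 was -0.06, beside 0.00 for all genes tested. In H1650, 22 rose and 11 fell, or 71.7%, where 62.3% of all genes tested were called, and the median log2 change was 0.05 beside 0.00. The share called was therefore near the background in both lines, with higher calls leading in H1650 and lower calls in A549. Over all genes tested, 16.4% were called higher and 15.9% lower in A549, and 31.0% higher and 31.3% lower in H1650. Counted by overlap of the 3 libraries of each group, 7 genes lay wholly higher and 18 wholly lower in A549, where 45.6% of all genes did so in either direction (22.7% higher and 23% lower). In H1650 22 lay wholly higher and 13 wholly lower, against 64.7% of all genes (32.1% higher and 32.6% lower). The split between directions moved with the scaling. With relative log expression factors in place of TMM, A549 had 2 higher and 14 lower calls, DESeq2 gave 3 and 14, and with plain library totals H1650 had 20 higher and 19 lower.

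Summed over the 46 genes, untreated A549 libraries held 8118 ± 39.0 CPM (SD, n = 3) and the SRSF2 libraries 7815 ± 53.3 CPM. In H1650 the sums were 6763 ± 77.1 and 6428 ± 124 CPM. Without PRPF8 the H1650 sums were 6188 ± 72.5 and 6133 ± 104 CPM. Without both PRPF8 and SF3B3 they were 5467 ± 68.6 untreated and 5651 ± 111 CPM with SRSF2, so the sum was no longer lower. PRPF8 and SF3B3 had the largest log2 falls of the 46 genes in H1650. Leaving them out could therefore only move the change of the sum upward. Since these are bulk libraries, fewer cells with a transcript and less RNA per cell cannot be told apart.

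**Figure D1:**
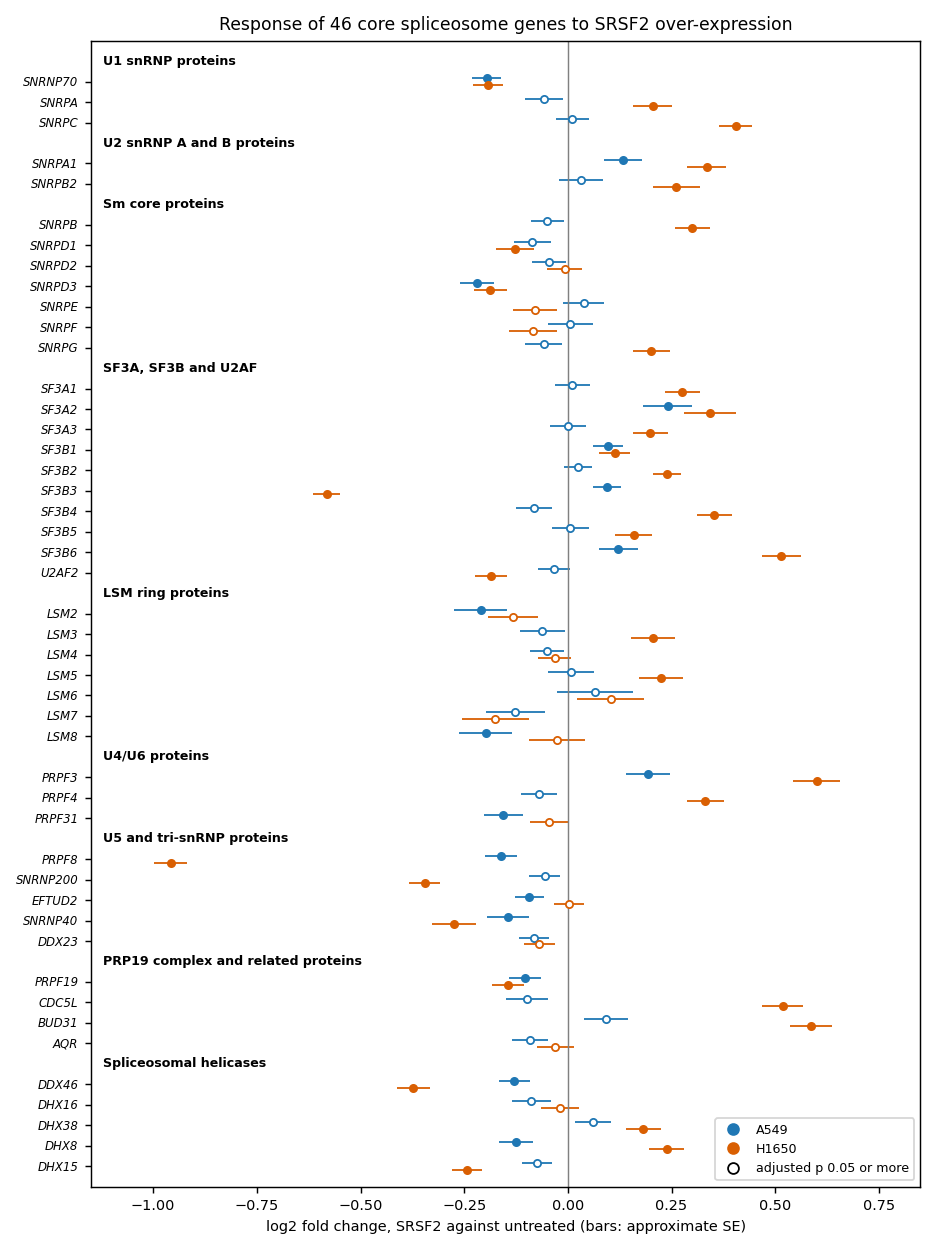
Log2 fold change of each of the 46 genes with SRSF2 over-expression in A549 (blue) and in H1650 (orange), grouped by class, with bars of 1 approximate standard error and open symbols for changes not called. PRPF8 (-0.96) and SF3B3 (-0.58) lie farthest to the lower side in H1650, and PRPF3 (0.60) and BUD31 (0.59) farthest to the higher side.

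The promoters of these genes often held a sequence that the list did not use. The letters CCGGAAG hold the GGAA core of ETS-family binding sites. They occurred on either strand within the 250 bases before an annotated start in 23 of the 42 genes with a RefSeq promoter entry (54.8%). Their share was 10.2% of 27305 genes and 17.4% of the 11242 tested genes with an entry. Shown here are 2 genes with a match that rose in H1650 (SNRPB and SNRPC) and 2 that fell (SNRNP200 and DDX46), with these letters in capitals, 5′ to 3′ along the gene's strand, from RefSeq on build GRCh38.p14. The SNRPB window is chr20:2470824-2471039 on the minus strand and the SNRPC window chr6:34757255-34757435 on the plus strand. The SNRNP200 window is chr2:96305547-96305796 on the minus strand and the DDX46 window chr5:134758529-134758778 on the plus strand. Each begins 250 bases before the start, and those of SNRPB and SNRPC end 35 and 70 bases before it. The last 30 bases of both lie in an exon of GENCODE 29, which in SNRPB includes the marked letters.
SNRPB: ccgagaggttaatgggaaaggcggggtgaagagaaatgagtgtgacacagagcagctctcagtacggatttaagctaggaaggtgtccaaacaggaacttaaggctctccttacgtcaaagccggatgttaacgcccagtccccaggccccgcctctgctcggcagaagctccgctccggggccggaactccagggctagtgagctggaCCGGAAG
SNRPC: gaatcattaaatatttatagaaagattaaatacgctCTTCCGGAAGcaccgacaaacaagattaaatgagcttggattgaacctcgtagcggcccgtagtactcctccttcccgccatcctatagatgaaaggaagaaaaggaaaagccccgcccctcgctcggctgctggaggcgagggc
SNRNP200: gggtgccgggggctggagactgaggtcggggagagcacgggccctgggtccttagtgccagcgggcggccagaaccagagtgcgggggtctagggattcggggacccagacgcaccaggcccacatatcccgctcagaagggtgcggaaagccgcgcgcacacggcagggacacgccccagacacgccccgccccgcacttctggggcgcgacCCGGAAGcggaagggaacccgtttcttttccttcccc
DDX46: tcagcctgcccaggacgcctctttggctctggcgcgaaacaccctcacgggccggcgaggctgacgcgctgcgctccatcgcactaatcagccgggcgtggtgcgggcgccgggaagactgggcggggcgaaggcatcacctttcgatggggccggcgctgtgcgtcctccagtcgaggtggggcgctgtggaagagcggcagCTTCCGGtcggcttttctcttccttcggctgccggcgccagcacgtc
In SNRPC the letters and their reverse complement overlap, and in DDX46 only the reverse complement CTTCCGG occurs. By class, the letters were found in 7 of 9 promoters of the SF3A, SF3B and U2AF genes, 4 of 6 Sm genes and 4 of 5 helicases, but in 1 of 5 U5 and tri-snRNP genes and 0 of 2 U4/U6 genes. By response in H1650, 15 of 21 genes that rose held them, 3 of 9 that fell and 5 of 12 that were not called. Shares by response were not computed over all genes, and a link between the letters and the response was not tested. The SP1 letters GGGCGG occurred in 66.7% of the 42 promoters against 46.2% of all, and an NRF1 motif in 19% against 6.2%. Shares among tested genes were computed for CCGGAAG alone, so the other motifs are set beside all 27305 genes, expressed or not. A TATA box, searched as TATAAA, occurred in 2.38% against 13%, while CCAAT (38.1% against 37.0%) and the E-box CACGTG (4.76% against 7.73%) were at shares closer to those of all promoters. The letters AAGATGGCG (YY1) were in 0 of 42, and TGACGTCA (CRE), TTTCGCGC (E2F) and a ZNF143 motif were in 2.38%, 2.38% and 7.14%, against 2.03%, 0.542% and 2.05% of all promoters. The split by response in H1650 had another order for other motifs. GGGCGG was in 66.7% of genes that rose, 77.8% that fell and 58.3% not called. For CCAAT these shares were 28.6%, 44.4% and 50%, and for the NRF1 motif 14.3%, 11.1% and 33.3%. Both strands were searched, and each motif was counted on its own, also where matches overlap. A gene with more than 1 annotated start was counted if the window of any start held the motif. Such genes had more bases searched, among the 42 and among all genes. The median GC content was 60.4% in the 42 and 58.0% in all. A match is a description of letters, and binding at these promoters was not measured.

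U1 snRNP proteins define the 5′ splice site, and in H1650 2 of the 3 rose and 1 fell, while in A549 1 fell. Among all genes tested 31.0% rose and 31.3% fell in H1650, and 15.9% fell in A549. SNRNP70, the U1-70K protein that binds U1 snRNA and is contacted by SR proteins, stood at 508, 502 and 509 CPM in the untreated A549 libraries 1 to 3 and at 432, 447 and 449 CPM in the SRSF2 libraries. In H1650 it stood at 373, 354 and 375 CPM untreated and 308, 332 and 324 CPM with SRSF2. The groups did not overlap in either line, and SNRNP70 fell in both (log2 change -0.20, SE 0.04, edgeR adjusted p = 4.71e-05 in A549 and log2 change -0.19, SE 0.04, edgeR adjusted p = 1.79e-05 in H1650). SNRPC, the U1-C protein that stabilises pairing with the 5′ splice site, stood at 107, 103 and 102 CPM in untreated H1650 and 141, 138 and 135 CPM with SRSF2. All 3 SRSF2 libraries lay above all untreated ones, a rise (log2 change 0.40, SE 0.04, edgeR adjusted p = 6.61e-11), whereas in A549 the levels of 94.2, 91.5 and 94.9 and 93.7, 96.5 and 92.6 CPM overlapped and the log2 change was 0.01 (adjusted p = 0.868). SNRPA, the U1-A protein that binds a stem-loop of U1, read 104, 95.8 and 94.9 CPM in untreated A549 and 93.3, 95.8 and 93.7 CPM with SRSF2, which overlapped. Its log2 change was -0.06 there (adjusted p = 0.366) and 0.20 in H1650, where it rose (adjusted p = 0.000283).

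Both U2-specific proteins rose in H1650, and SNRPA1 rose in both lines. Among all genes tested 31.0% rose in H1650 and 9.44% in both lines. SNRPA1 and SNRPB2, the A-prime and B-double-prime proteins, bind together to a stem-loop of U2 snRNA. SNRPA1 read 91.7, 86.6 and 88.5 CPM in untreated A549 and 103, 95.7 and 93.5 CPM with SRSF2, against 69.2, 64.5 and 63.1 and 84.7, 82.2 and 81.5 CPM in H1650. The SRSF2 libraries lay above the untreated ones in each line (log2 change 0.13, SE 0.05, edgeR adjusted p = 0.025 in A549 and log2 change 0.34, SE 0.05, edgeR adjusted p = 1.44e-07 in H1650). SNRPB2 read 44.2, 43.9 and 38.8 CPM in untreated H1650 and 52.1, 49.3 and 50.7 CPM with SRSF2, with no overlap (log2 change 0.26, SE 0.06, edgeR adjusted p = 0.000148). In A549 it read 79, 77 and 77.6 and 86.8, 78.6 and 73.6 CPM, with the SRSF2 libraries below, between and above the untreated ones (log2 change 0.03, adjusted p = 0.689).

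The 7 Sm proteins form 1 ring in equal amounts, yet their mRNAs did not move together. In H1650 SNRPB and SNRPG rose, SNRPD1 and SNRPD3 fell and the other 3 were not called. The share called was 57.1%, against 62.3% of all genes tested. SNRPB codes for SmB/B′ and read 119, 124 and 128 CPM in untreated H1650 and 146, 159 and 152 CPM with SRSF2. Its groups did not overlap (log2 change 0.30, SE 0.04, edgeR adjusted p = 9.41e-08). Exons of AL049650.1, at 1.67 CPM in untreated H1650, overlap 20% of its exon bases. In A549 it read 271, 255 and 250.5 and 252, 244 and 253 CPM, which overlapped (log2 change -0.05, adjusted p = 0.368). SNRPD3, or SmD3, read 119, 116 and 123 CPM in untreated A549 and 105, 105 and 98.2 CPM with SRSF2, and 157, 159 and 159 and 134, 139 and 144 CPM in H1650. It was the only Sm gene that fell in both lines, by the same test (log2 change -0.22, SE 0.04, edgeR adjusted p = 8.38e-05 and log2 change -0.19, SE 0.04, edgeR adjusted p = 0.000131). Exons of other annotated genes overlap 24.6% of the exon bases of SNRPD3, among them those of GUCD1 (log2 change -0.38 in H1650) and GGT1 (-0.97), and whether the counting used strand is not stated, so its fall is uncertain. SNRPD1, or SmD1, read 89.5, 86.3 and 88.6 and 86.2, 84.9 and 78 CPM in A549, with all SRSF2 libraries below the untreated ones but no call (log2 change -0.09, adjusted p = 0.145). SNRPG rose in H1650 (log2 change 0.20, adjusted p = 0.000211). SNRPG, SNRPE and SNRPF have 20, 9 and 4 annotated pseudogene copies, and SNRPC has 18, so their counts could be split among copies. SNRPD2, SNRPE and SNRPF had log2 changes between -0.08 and -0.01 in H1650 and were not called there.

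Per unit of transcript length, the ring genes lay far apart. Levels per length are in TPM, the count per kilobase of the longest principal transcript of GENCODE 29, scaled to the same sum in each library. SNRPD2 stood at 737 ± 41.4 TPM in untreated A549 (SD, n = 3), SNRPB at 588 ± 23.4 and SNRPG at 524 ± 14.1. SNRPE (199 ± 2.64), SNRPD3 (178 ± 4.52) and SNRPF (163 ± 9.51 TPM) came next in that group, and SNRPD1 was lowest at 47.1 ± 0.561 TPM. In untreated H1650 SNRPD2 stood at 525 ± 10.3, SNRPG at 423 ± 2.55 and SNRPB at 292 ± 8.52 TPM. With SRSF2 in H1650 they stood at 483 ± 18.8, 450.2 ± 0.591 and 332 ± 11.6 TPM. Changes between groups were tested on counts with TMM scaling and not on TPM, and the 2 can differ. SNRPD2 had a tested log2 change of -0.01 in H1650 and was not called. LSM4 went from 325 to 294 TPM there, at a tested log2 change of -0.03 that was not called. The SNRPD1 value uses an annotated transcript of 4909 bases and the LSM3 value 1 of 3815 bases, so both rest on the choice of transcript. Among the LSM genes in untreated A549, LSM7 (220.3 ± 3.97 TPM) and LSM4 (199 ± 6.51 TPM) were highest, and the lowest were LSM3 (37.9 ± 1.64 TPM) and LSM6 (12.5 ± 1.14 TPM).

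**Figure D2:**
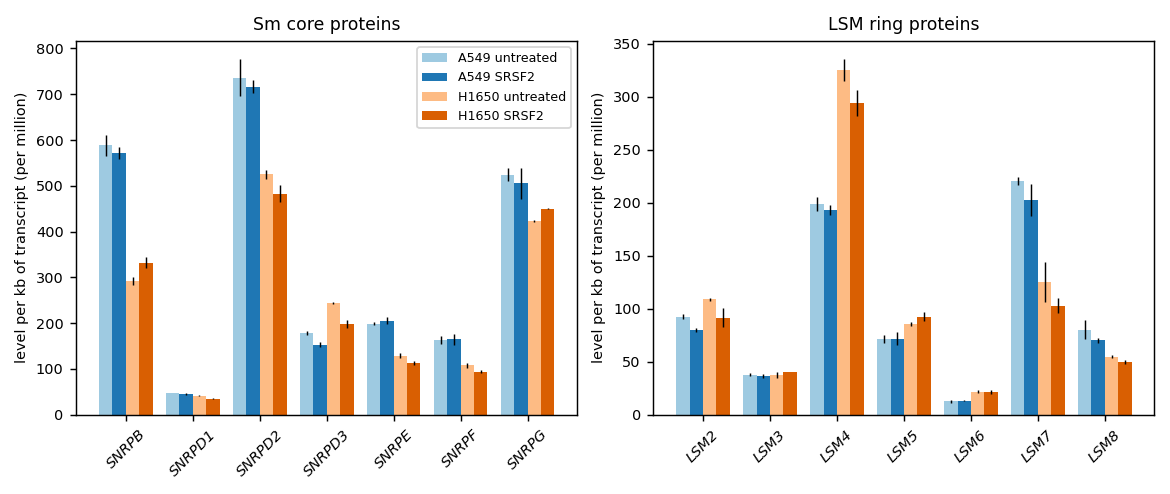
Level per length in TPM of the 7 Sm genes (left) and the 7 LSM ring genes (right) in the 4 groups, with bars for the mean of 3 libraries and lines for the SD. Genes of 1 ring span a wide range of levels, and in H1650 SNRPB and SNRPG stand higher with SRSF2 than untreated while SNRPD3 stands lower.

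Among SF3A, SF3B and U2AF genes, the largest class, 4 of 10 rose and 0 fell in A549 (SF3A2, SF3B1, SF3B3 and SF3B6). With relative log expression factors SF3A2 alone of these was called higher in A549. In H1650 8 of 10 rose and 2 fell, so the class held the most rises by count. By share the U2 snRNP A and B genes stood higher, with 1 of 2 called higher in A549 and 2 of 2 in H1650. Over all genes tested 16.4% were called higher in A549 and 31.0% in H1650. The SF3A, SF3B and U2AF proteins bind the branch site and the polypyrimidine tract as U2 joins. SF3B6, the p14 protein that contacts the branch-site region, read 71.1, 69.5 and 67.8 CPM in untreated H1650 and 104, 100.5 and 93.8 CPM with SRSF2. The SRSF2 libraries lay above all untreated ones (log2 change 0.51, SE 0.05, edgeR adjusted p = 9.24e-12). SF3A2, the SF3a66 subunit, read 73, 68.5 and 62.5 CPM in untreated A549 and 82.6, 77.5 and 81 CPM with SRSF2. It rose without overlap in A549 (log2 change 0.24, SE 0.06, edgeR adjusted p = 0.00186) and also rose in H1650 (log2 change 0.34, SE 0.06, edgeR adjusted p = 1.42e-05). Exons of other genes overlap 12.7% of its exon bases. SF3B1, which clamps the branch helix and is recurrently mutated in myeloid neoplasms, rose by a log2 change of 0.10 in A549 (adjusted p = 0.0419) and 0.11 in H1650 (adjusted p = 0.00822).

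SF3B3 went the other way in H1650. It codes for a scaffold subunit of SF3B and lies at chr16:70523788-70577670 (GRCh38). In untreated H1650 it read 723, 714 and 729 CPM and with SRSF2 478, 478 and 490.1 CPM, a gap several times the range within either group (log2 change -0.58, SE 0.03, edgeR adjusted p = 3.38e-17). In A549 it read 335, 330.1 and 334 and 352, 352 and 363 CPM, again without overlap but upward (log2 change 0.09, SE 0.03, edgeR adjusted p = 0.0257). The difference between the 2 responses is given with the comparison of the lines. Of the other subunits, SF3A1, SF3A3, SF3B2, SF3B4 and SF3B5 rose in H1650 by log2 changes between 0.16 and 0.35 and were not called in A549. U2AF2, the large subunit that binds the polypyrimidine tract, fell in H1650 (log2 change -0.19, adjusted p = 8.28e-05) and had a log2 change of -0.03 in A549 (adjusted p = 0.546).

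LSM ring genes code for the LSM2 to LSM8 ring that binds the 3′ end of U6 snRNA. In A549 2 of 7 fell and 0 rose, and in H1650 2 rose and 0 fell, so 28.6% were called in each line, against 32.3% of all genes in A549 and 62.3% in H1650. LSM2 read 30.1, 30.7 and 31.7 CPM in untreated A549 and 26.6, 27.4 and 26 CPM with SRSF2 (log2 change -0.21, SE 0.06, edgeR adjusted p = 0.00998). LSM8, the subunit that sets the nuclear ring apart from the cytoplasmic LSM1 ring, read 36.6, 37.6 and 45.1 and 35.7, 33.5 and 35.1 CPM (log2 change -0.20, SE 0.06, edgeR adjusted p = 0.016). For both genes the A549 groups did not overlap, and 1 untreated library of LSM8 (replicate 3) stood well above the other two. LSM3 read 55.3, 54.4 and 48.7 CPM in untreated H1650 and 60.6, 61.7 and 60.2 CPM with SRSF2 (log2 change 0.20, SE 0.05, edgeR adjusted p = 0.000978). LSM5 read 70.6, 72.4 and 70.04 and 84.8, 79.4 and 84.9 CPM (log2 change 0.23, SE 0.05, edgeR adjusted p = 0.00037), and both rose without overlap. LSM4, LSM6 and LSM7 were called in neither line.

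Among the U4/U6 proteins, PRPF3 rose in both lines. PRPF3 and PRPF4 bind U4/U6 as a pair, and PRPF31 binds the U4 snRNA fold on its 15.5K protein. PRPF3 read 98.9, 97.3 and 106 CPM in untreated A549 and 118, 114 and 113 CPM with SRSF2, and 58.4, 51.3 and 45.7 and 81, 76.9 and 77.7 CPM in H1650. No untreated library reached the SRSF2 libraries of its line (log2 change 0.19, SE 0.05, edgeR adjusted p = 0.0053 and log2 change 0.60, SE 0.06, edgeR adjusted p = 3.16e-11). PRPF4 rose in H1650, from 80.6, 78.9 and 82.5 to 108, 100.3 and 96.5 CPM (log2 change 0.33, SE 0.04, edgeR adjusted p = 4.65e-08), and its log2 change in A549 was -0.07 (adjusted p = 0.238). PRPF31 fell in A549, from 105, 101 and 101 to 90.7, 89.3 and 95.2 CPM (log2 change -0.16, SE 0.05, edgeR adjusted p = 0.00975). Other genes' exons overlap 32% of the exon bases of PRPF31, and its counts carry the strand limit given for SNRPD3.

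The U5 and tri-snRNP genes were the only class with 0 rises in both lines, and 3 of 5 (60%) fell in each. Over all genes tested 16.4% were called higher and 15.9% lower in A549. In H1650 31.0% were called higher and 31.3% lower. The U1, Sm, LSM, PRP19 and helicase classes also had 0 rises in A549. PRPF8 is the large U5 protein that holds the catalytic RNA, and it lies at chr17:1650629-1684882 (GRCh38). It read 576, 567 and 579.6 CPM in the untreated H1650 libraries and 321, 289.7 and 277 CPM in the SRSF2 libraries. All 3 SRSF2 libraries lay far below the untreated ones, with replicate 3 the lowest. This was the largest change of the 46 genes in either line (log2 change -0.96, SE 0.04, edgeR adjusted p = 6.14e-21). In A549 PRPF8 read 1067, 1090.5 and 1060.2 and 940.1, 981 and 958 CPM, a smaller fall without overlap (log2 change -0.16, SE 0.04, edgeR adjusted p = 0.00114). SNRNP200, the Brr2 helicase that unwinds U4/U6, read 468, 443 and 459.7 CPM in untreated H1650 and 378, 349 and 352 CPM with SRSF2 (log2 change -0.35, SE 0.04, edgeR adjusted p = 5.17e-10). All 3 SRSF2 libraries lay below the untreated ones, while in A549 the log2 change was -0.06 (adjusted p = 0.253). SNRNP40, a WD40-repeat protein of U5, read 56, 62.1 and 57.2 and 54.2, 53.5 and 50.9 CPM in A549 and fell in both lines (log2 change -0.14, SE 0.05, edgeR adjusted p = 0.0276 and log2 change -0.28, SE 0.05, edgeR adjusted p = 2.83e-05). EFTUD2, the U5 GTPase, fell in A549 (log2 change -0.09, adjusted p = 0.0375) and stood at a log2 change of 0.00 in H1650 (adjusted p = 0.946). DDX23, which displaces U1 from the 5′ splice site, was called in neither line. The summed level of the 5 genes went from 1393 ± 24.2 to 1003 ± 41.3 CPM in H1650 (SD, n = 3) and from 2381 ± 29.03 to 2202 ± 46.6 CPM in A549.

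**Figure D3:**
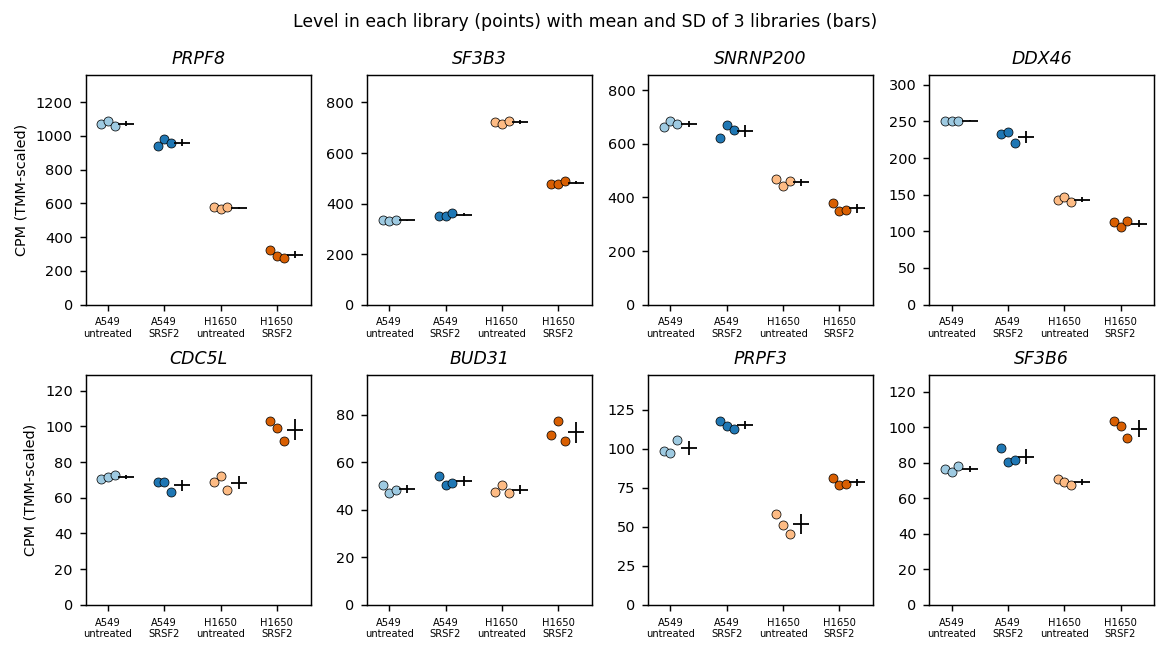
CPM of 8 genes with a large response in H1650 in each of the 12 libraries, 1 panel per gene with its own axis from 0, with a point per library and bars for the mean and SD of 3 libraries. In H1650 PRPF8 falls from 567 to 580 CPM untreated to 277 to 321 CPM with SRSF2, and SF3B3 from 714 to 729 CPM to 478 to 490.1 CPM, while CDC5L, BUD31, PRPF3 and SF3B6 rise.

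In the PRP19 complex and related proteins, 2 of 4 rose and 1 fell in H1650, and 1 fell in A549. The shares of all genes tested were 31.0% higher and 31.3% lower in H1650, and 15.9% lower in A549. CDC5L, a core scaffold of the complex, read 68.6, 72 and 64.6 CPM in untreated H1650 and 103, 99.3 and 91.7 CPM with SRSF2 (log2 change 0.52, SE 0.05, edgeR adjusted p = 3.08e-11). BUD31, a protein of the activated spliceosome, read 47.4, 50.5 and 47.1 and 71.6, 77.4 and 68.8 CPM (log2 change 0.59, SE 0.05, edgeR adjusted p = 4.17e-12). The H1650 groups did not overlap for either gene. Other genes' exons overlap 46.7% of the exon bases of BUD31, those of PTCD1 and PDAP1 on the opposite strand. PTCD1 stood at 0.702 CPM in untreated H1650, and PDAP1, which shares 189 bases, at 196 CPM untreated and 227 CPM with SRSF2 (log2 change 0.21), so the rise of BUD31 carries the same strand limit. PRPF19, the ubiquitin ligase of the complex, read 221, 221 and 216 CPM in untreated A549 and 201, 205 and 207 CPM with SRSF2, and fell in both lines (log2 change -0.10, SE 0.04, edgeR adjusted p = 0.0324 and log2 change -0.14, SE 0.04, edgeR adjusted p = 0.00155). AQR, the intron-binding helicase, read 135, 145 and 149 and 132, 137 and 133 CPM in A549, which overlapped, and was called in neither line (adjusted p = 0.103 in A549 and 0.586 in H1650).

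Of the 5 helicases 2 were higher and 2 lower in H1650, where 31.0% of all genes tested were higher and 31.3% lower. In A549 2 were lower, where 15.9% of all genes tested were. DDX46, the Prp5 helicase that acts when U2 joins, read 250.01, 251 and 251 and 233, 236 and 219.9 CPM in A549 and 143, 146 and 140.3 and 112, 106 and 114 CPM in H1650. It fell without overlap in both (log2 change -0.13, SE 0.04, edgeR adjusted p = 0.00826 and log2 change -0.37, SE 0.04, edgeR adjusted p = 4.69e-10). DHX15, the Prp43 helicase that takes the spliceosome apart, fell in H1650 from 262, 262 and 255 to 227, 220.3 and 212 CPM (log2 change -0.24, SE 0.04, edgeR adjusted p = 3.8e-07). DHX8, the Prp22 helicase that releases the mRNA, had opposite calls in the lines. It read 121, 120.4 and 124 and 109, 113 and 113 CPM in A549 (log2 change -0.12, SE 0.04, edgeR adjusted p = 0.0194) and 81.2, 80.7 and 80.2 and 101, 91.9 and 93.3 CPM in H1650 (log2 change 0.24, SE 0.04, edgeR adjusted p = 8.96e-06). DHX38, the Prp16 helicase of the second catalytic step, rose in H1650 (log2 change 0.18, adjusted p = 0.00026), with 12.2% of its exon bases overlapped by other genes such as TXNL4B, and DHX16 was called in neither line.

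Many of the A549 calls lay close to the threshold. Of the 17, those of SNRNP70, SNRPD3, SF3A2, LSM2 and PRPF8 were kept under every alternative setting tried. The rises of SF3B1, SF3B3 and SF3B6 and the falls of EFTUD2 and PRPF19 were lost on leaving out any 1 of 5 or 6 of the A549 libraries (edgeR adjusted p from 0.050 to 0.269). With relative log expression factors the rises of SF3B1, SF3B3, SF3B6 and SNRPA1 were lost, and with DESeq2 those of SF3B1, SF3B6 and SNRPA1. With limma on log2(FPKM + 0.1) SF3B1, SF3B6, SNRPA1, LSM8 and SNRNP40 were not called either. The call of SF3B3 held without SRSF2 replicate 1, that of SF3B6 without SRSF2 replicate 2, that of EFTUD2 without untreated replicate 3 and that of PRPF19 without SRSF2 replicate 3, while that of SF3B1 was lost without any 1 of the 6. The rise of SNRPA1 was lost without untreated replicate 2 or 3 or SRSF2 replicate 1 (adjusted p up to 0.192), and the fall of SNRNP40 without untreated replicate 2 or SRSF2 replicate 2 or 3 (up to 0.207). LSM8 was lost without untreated replicate 3 or SRSF2 replicate 2 (0.0874 and 0.279), PRPF31 without untreated replicate 1 or SRSF2 replicate 2 (0.0555 and 0.0624), and DHX8 without untreated replicate 3 or SRSF2 replicate 1 (0.0869 and 0.0962). DDX46 was lost without SRSF2 replicate 3 (0.0677), and PRPF3 only with limma on log2(FPKM + 0.1). Of the 33 H1650 calls 27 were kept under every setting. The H1650 call of SNRPD1 was lost without untreated replicate 2 (0.0515) and that of SF3B1 without untreated replicate 3 or SRSF2 replicate 1 (0.071 and 0.0831). The H1650 rises of SF3B1 and SF3B5 were also lost with plain library totals, and with limma on log2 FPKM these and the rises of LSM3, LSM5 and DHX38 were not called.

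Set beside each other, the lines shared 5 rises (SNRPA1, SF3A2, SF3B1, SF3B6 and PRPF3), or 10.9% of the 46 genes, where 9.44% of all genes tested rose in both. With relative log expression factors or DESeq2 the shared rises were those of SF3A2 and PRPF3 alone. They shared 6 falls (SNRNP70, SNRPD3, PRPF8, SNRNP40, PRPF19 and DDX46), or 13%, where 8.69% of all genes did. The A549 falls of SNRNP40, PRPF19 and DDX46 were lost in 4, 5 and 1 of 14 alternatives. DHX8 alone was lower in A549 and higher in H1650, a pattern of 2.84% of all genes, and SF3B3 alone the reverse, a pattern of 3.13%. Their A549 calls were lost in 2 (DHX8) and 6 (SF3B3) of 14 alternatives. The difference of the 2 responses, tested directly as A549 minus H1650, was called for 25 genes (54.3%), where 47.5% of all genes tested were called. In 19 of them the response was the more positive in H1650 and in 6 the more positive in A549. Of all genes tested, 23.5% were called as more positive in H1650 and 24% as more positive in A549. With plain library totals the counts of 19 and 6 were 14 and 8. CDC5L differed most to the H1650 side (log2 difference -0.62, SE 0.07, adjusted p = 5.43e-09). PRPF8 (0.80, SE 0.05, adjusted p = 3.07e-14) and SF3B3 (0.68, SE 0.05, adjusted p = 3.04e-14) differed most to the A549 side. The falls of SNRNP70, SNRPD3 and PRPF19 had differences between -0.03 and 0.04 (log2), which were not called.

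Without over-expression, most of these genes stood lower in H1650 than in A549. Of the 46, 30 were lower and 11 higher in untreated H1650 (89.1%), where 82.4% of all genes tested were called, 42.3% lower and 40.1% higher. The groups did not overlap for the same counts of 30 and 11, where 84% of all genes had no overlap (43.1% lower and 40.9% higher). The median log2 difference was -0.29, beside -0.04 for all genes tested. All 5 U5 genes (log2 differences -0.90 to -0.27), all 3 U4/U6 genes, both U2 genes and 6 of 7 Sm genes were lower. SNRPB read 271, 255 and 250.5 CPM in untreated A549 and 119, 124 and 128 CPM in untreated H1650, with a wide gap between the lines (log2 difference -1.06, SE 0.04, edgeR adjusted p = 1.08e-22). LSM genes went against this order, with 4 of 7 higher in H1650, among them LSM6 (0.76) and LSM4 (0.66). The 2 genes furthest to the H1650 side were DHX38 and SF3B3. DHX38 read 132, 132 and 123 CPM in A549 and 311, 279 and 288 CPM in H1650 (log2 difference 1.18, SE 0.04, adjusted p = 2.29e-23). SF3B3, with the library values given above, differed by 1.12 (SE 0.03, adjusted p = 4.11e-26).

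**Figure D4:**
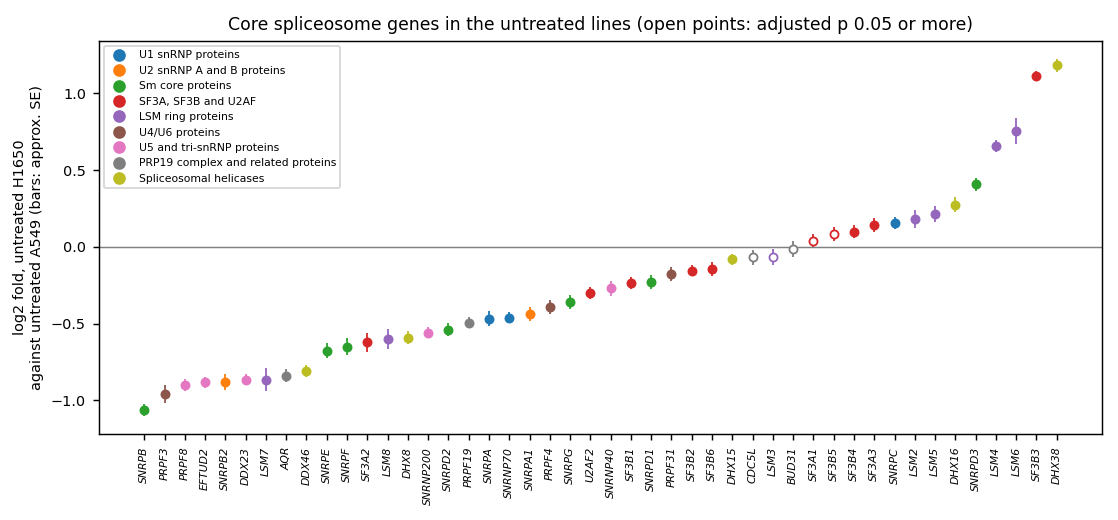
Log2 difference of untreated H1650 over untreated A549 for the 46 genes in order of the difference and coloured by class, with bars of 1 approximate standard error and open points for genes not called. Most genes lie below 0, while DHX38 (1.18) and SF3B3 (1.12) lie farthest above it and SNRPB (-1.06) farthest below.

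SF3B3 and DHX38 both lie on chromosome 16, with 1515892 bases between them (DHX38 at chr16:72093562-72112912). Of the 12 tested genes between them, 10 were higher and 0 lower in untreated H1650, with a median log2 difference of 1.07. The shares of all genes tested were 40.1% higher and 42.3% lower. However, the tested genes nearest to DHX38 were not called. They were DHODH (-0.12), TXNL4B (0.04) and PMFBP1 (-0.96, at 0.243 CPM in untreated H1650). Within 1000000 bases of SNRPB on chromosome 20, 15 of 22 tested genes were lower and 2 higher, with a median of -0.97. These 3 genes were looked at for their position after their values were seen. Over all 46, 30 had the same sign as the median of their neighbours within that distance. The same count was not made for other genes, so 30 of 46 has no background share beside it. There were also exceptions. SNRNP40 was lower in H1650 (-0.27) while 21 of its 28 neighbours were higher (median 0.86), and PRPF3 differed by -0.96 beside a neighbours' median of 0.01.

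**Figure D5:**
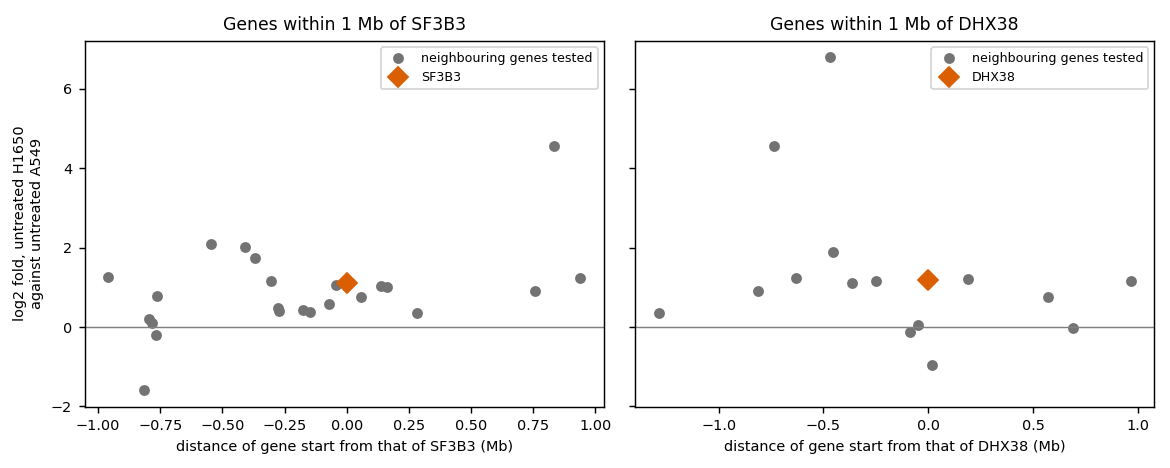
Log2 difference of untreated H1650 over untreated A549 (vertical axis) for the tested genes near SF3B3 (left) and DHX38 (right), against the distance of each gene's start from that of SF3B3 or DHX38 in Mb, with SF3B3 and DHX38 as diamonds. Most neighbours lie above 0, with medians of 0.77 and 1.10.

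Other spliceosome genes were read from the same fit as 5 lists with 104 tested genes in all. Of these, 13 rose and 11 fell in A549 (23.1%), and 54 rose and 26 fell in H1650 (76.9%), with median log2 changes of -0.01 and 0.13. Over all genes tested 32.3% were called in A549 (16.4% higher and 15.9% lower) and 62.3% in H1650 (31.0% higher and 31.3% lower). The list of other catalytic-stage proteins had 24 rises and 7 falls among 33 genes in H1650, and 8 rises and 2 falls in A549. SYF2, a protein of the catalytic spliceosome, rose in both (log2 changes 0.40 in A549 and 1.10 in H1650), and SLU7, which acts in the second step, rose by 1.44 in H1650. EIF4A3, a core subunit of the exon junction complex, fell by 0.21 on the log2 scale in A549. Other A and B complex proteins had 17 rises and 4 falls among 30 in H1650 and 1 rise and 3 falls in A549. Among them PHF5A, the small SF3B subunit, rose in H1650 (0.69), as did IK (0.61), a tri-snRNP-associated protein. In A549 HTATSF1 (-0.15) and the U5 protein TXNL4A (-0.17) fell. The list of snRNP assembly and import ran the other way in H1650, with 6 rises and 11 falls among 23, and had 1 rise and 4 falls in A549. GEMIN5 (-0.60) and GEMIN8 (-1.16), subunits of the SMN complex that loads Sm rings onto snRNAs, fell in H1650, and GEMIN4 (-0.24) and MEPCE (-0.23) fell in A549.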

How the data were processed

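The sources describe polyadenylated RNA of A549 and H1650 cells, untreated or over-expressing SRSF2, 3 libraries per group. The authors deposited raw read counts per gene and FPKM values per gene. Per the submitters' processing notes, the tools were featureCounts 2.0.0 for counting, STAR 2.7.7a for alignment and fastp 0.20.1. The use of strand in counting is not given in the sources used here. FPKM, as deposited by the authors, served only for an alternative test.

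Genes with enough counts (filterByExpr in edgeR 4.0.16, R 4.3.3) numbered 15991. They were fitted over all 12 libraries with 1 mean per group, TMM scaling and the quasi-likelihood test (8 residual degrees of freedom), with Benjamini-Hochberg adjustment over all of them. Standard errors were taken as the log2 change divided by the root of F and are approximate. The script was tested on simulated data. Alternatives were relative log expression factors, plain totals, no filter on low counts, DESeq2 1.42.0, limma 3.58.1 on log2(FPKM + 1) and log2(FPKM + 0.1), a replicate block, only the libraries of a contrast, and each library left out in turn. Lengths and positions are from GENCODE 29, and promoters from RefSeq on GRCh38.p14.

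The genes, classes and related lists were chosen with earlier results of these data known. Values in every library are given for up to 2 genes per class with the smallest adjusted p in each line, and up to 3 for each of the other 2 comparisons (29 genes). From each related list up to 2 called genes per line are named. Replicate libraries differed by more than sampling noise, with chi-square per degree of freedom from 2.28 to 8.12. The levels of SRSF2 and PRPF6 were not analysed here.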

Additional observations from a re-analysis of the deposited data

Results flagged for a closer look

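For 25 of the 46 genes (54.3%) the change with SRSF2 differed between the lines by a direct test of the difference. The share of all genes tested was 47.5%. The difference is written as the log2 change in A549 minus that in H1650 (edgeR's quasi-likelihood test, adjusted p under 0.05). The response was more positive in H1650 for 19 genes and in A549 for 6, where all genes tested had 23.5% and 24%. With plain library totals this split was narrower, as given with the comparison of the lines. The response was more positive in H1650 for CDC5L (-0.62), BUD31 (-0.49), SF3B4 (-0.43), PRPF3 (-0.41), PRPF4 (-0.40), SNRPC (-0.39), SF3B6 (-0.39), DHX8 (-0.36) and SNRPB (-0.35). The same held with smaller differences for LSM3 (-0.27), SF3A1 (-0.27), SNRPA (-0.26), SNRPG (-0.26), SNRPB2 (-0.23), LSM5 (-0.22), SF3B2 (-0.22), SNRPA1 (-0.20), SF3A3 (-0.20) and SF3B5 (-0.15). The response was more positive in A549 for U2AF2 (0.15), DHX15 (0.17), DDX46 (0.24), SNRNP200 (0.29), SF3B3 (0.68) and PRPF8 (0.80). Of the 25, 18 were called under every alternative tried. The difference of SF3B5 was lost in 14 of 19 alternatives. That of LSM5 was lost without A549 untreated replicate 3 or SRSF2 replicate 3 (adjusted p 0.0864 and 0.0907). SNRPB2 was lost without A549 SRSF2 replicate 3 or H1650 untreated replicate 3 (0.0688 and 0.0804), and U2AF2 without A549 untreated replicate 1 or H1650 SRSF2 replicate 3 (0.0586 and 0.0589). LSM3, LSM5, SNRPB2, SF3A3 and SNRPA1 were lost with limma on FPKM, and all of these except LSM3 also with plain totals.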

How the results depend on the processing

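The 6 higher calls in A549 were 2 with relative log expression factors, 3 with DESeq2 and 2 with limma on log2(FPKM + 0.1), and the counts with 1 library left out ranged from 2 to 4. The 11 lower calls in A549 were 6 to 9 with 1 library left out, 6 without SRSF2 replicate 2. In H1650 the 11 lower calls became 19 with plain totals, 17 with limma on log2(FPKM + 0.1) and 11 to 13 with 1 library left out. Leaving out 1 library gave 21 to 22 higher calls in H1650, and 10 to 12 higher and 29 lower between the untreated lines. EFTUD2 in H1650, at 0.00 in log2 change, read -0.0596 with limma on log2(FPKM + 1) and -0.0747 on log2(FPKM + 0.1), and no other of the 46 genes was called with a direction opposite to its main value. With the replicate number as a block the counts of higher and lower calls were 6 and 11 in A549, 22 and 11 in H1650, 6 and 18 for the difference and 11 and 30 between the lines. Same-numbered libraries had residual correlations from -0.0247 to 0.0592. Libraries with different numbers were not compared in this way and the labels state no pairing, so whether the numbers pair the samples is not known. Plain totals moved the median of all genes in H1650 by less than 0.1 (to -0.08), and that of the 46 from 0.05 to -0.03. Of 2806 gene-level alternatives, 2629 stayed on the same side of the threshold (values that were not called could change sign), 122 lost a call and 53 gained 1. With 3 libraries per group, a leave-out arm holds 2 samples.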

Other observations

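Proteins of the minor spliceosome, which removes the rare U12-type introns, were measured for 11 genes outside the list of 46. Of these 5 rose and 1 fell in H1650, with a median log2 change of 0.10, and 3 rose and 2 fell in A549 (median -0.03). SCNM1 (1.07) and TXNL4B (1.29) rose in H1650, the latter with exons that overlap those of DHX38 on the opposite strand. SNRNP25 (-0.29) and ARMC7 (-0.37) fell in A549. Among 7 LSM proteins outside the nuclear U6 ring, 0 were called in A549 and 2 rose and 3 fell in H1650, with falls of LSM14B (-0.34) and LSM12 (-0.35). Each share of calls stands beside 62.3% of all genes called in H1650 and 32.3% in A549.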
